A study of Mus musculus with 2 samples.

Results

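Of the 4043 autosomal places where FLAG-tagged Msgn1 was recovered from mouse chromatin, called peaks here, 397 lay in 116 runs of 3 or more. In a run each peak starts at most 50 kb after its neighbour ends. These 397 peaks, 9.82% of the autosomal peaks and part of a list of 4087 peaks in all, are described here. They were chosen by position alone, on chromosomes 1 to 19, from the authors' peak list. Of the other autosomal peaks, 824 lay in pairs and 2822 had no other peak within 50 kb.

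The list compares 2 libraries, 1 per group, made by chromatin immunoprecipitation followed by sequencing (ChIP-seq). Both came from A2lox FMsgn1 embryonic stem cells of strain C57BL/6, which carry a FLAG-tagged Msgn1 that doxycycline switches on. The cells had been kept on mouse embryonic fibroblasts with LIF, were differentiated as embryoid bodies for 2 days, and were then exposed to 1 ug/ml doxycycline for 36 h. The FLAG library holds DNA recovered with the anti-Flag M2 antibody, and the Input library holds DNA of the same induced cells without antibody. Msgn1 was therefore induced in both groups and produced from an inducible copy. No library of uninduced or untagged cells was analysed here, and the sequencing depth of both libraries is unknown from the list. No value has a replicate error and no test between conditions was possible. Intervals given below cover counting error among peaks or runs only, and peaks within a run are neighbours and not independent.

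Msgn1 encodes a DNA-binding protein of the basic helix-loop-helix class and is expressed in presomitic mesoderm, which lies toward the tail of the embryo and is cut into somites, the blocks that give rise to vertebrae and trunk muscle. Factors of this family bind DNA as dimers at short sequences known as E-boxes, and their binding sites often lie in enhancers, which can sit at some distance from the gene they act on and can occur as several separate elements around 1 gene. Peaks are named here by position on mm9. No genome sequence or annotation of that build was used, so no gene is assigned to a run and no sequence under a peak is shown.

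Most runs were short strings. There were 81 runs of 3 peaks, 25 of 4, 8 of 5 and 2 of 7, and none of 6. Runs were found on each of the 19 autosomes. Chromosome 2 had the most, with 12, followed by chromosome 1 with 11 and chromosome 9 with 10, while chromosome 14 had 2. As a share of the peaks on a chromosome, those in runs made up between 3.49% on chromosome 14 and 15.2% on chromosome 9. None of the 44 peaks on X, which the rule leaves out, lay in a run of 3, and 6 lay in pairs.

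Of the 2 runs of 7 peaks, the one with the higher top score was on chromosome 6. Its peaks spanned chr6:108170077-108260520, and in order along the chromosome they scored 96.4, 63.5, 81.6, 158, 216, 134 and 515. Scores are those the authors deposited for each peak, on a scale that the list does not state, with 50 as the lowest value; they are used here to rank peaks and to describe differences. The first 6 peaks lay within 5 gaps of 0.244 to 13.9 kb, and the top peak, chr6:108259113-108260520, stood 48.4 kb beyond the one before it. The peaks scoring 158 and 216, separated by 244 bp, were the highest after it. At 1408 bp, the top peak was also the widest of the 7, and it ranked 23rd in the whole list.

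The other run of 7 peaks had its highest peak in the middle. It spanned chr16:29758381-29852323, and its scores in order were 222, 83.9, 87.6, 460, 74.3, 68.3 and 55. A group of 3 peaks, with gaps of 2.56 kb and 0.257 kb, opened the run. The top peak, chr16:29800100-29801074, followed after a gap of 36.2 kb. The last 3 peaks trailed at gaps of 10.8, 26.5 and 11.7 kb with scores that stepped down toward the end. The 2 runs were thus of nearly the same length, 90.4 and 93.9 kb, and differed in where their peaks crowded and where the top one stood.

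The 8 runs of 5 peaks had a range of shapes. In chr1:77423373-77461819 the scores were 53.4, 55.3, 96.1, 630 and 55.9, so a single peak that ranked 12th in the list stood among 4 peaks scoring under 100. Its neighbours lay only 434 and 430 bp away on either side. In chr2:168605326-168669131 the scores were 144, 249, 200, 50.6 and 52.1, and the peaks scoring 249 and 200 were 2.02 kb apart. In chr13:98315972-98344483, the shortest of the 8 at 28.5 kb, they were 50.7, 234, 156, 83.3 and 72.7. In both of these runs the highest and second-highest peaks stood next to each other. That was so in 7 of the 8 runs of 5, where 40% of pairs of places are neighbours, and in 0 of the 2 runs of 7. The difference was not tested.

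Next came chr10:83523224-83574642, with scores of 97.6, 52.1, 141, 206 and 56.5 and a gap of 499 bp after its top peak. The longest run of all, chr2:151797741-151917855, spanned 120.1 kb and scored 52.8, 61.8, 141, 81.1 and 203, with the top peak last. It was held together by gaps of 48.1 and 49.7 kb, just under the limit. The other 3 runs of 5 had lower top scores. They were chr11:63711340-63766583 with 51.3, 52.9, 131, 93.0 and 50.2, chr1:182778537-182855499 with 79.5, 80.1, 104, 81.4 and 53.0, and chr7:135672919-135714801 with 50.4, 52.5, 61.1, 69.0 and 60.3. In the run on chromosome 7 no peak reached a score of 70, although those scoring 61.1 and 69.0 lay only 67 bp apart, so a run of 5 could be made of low-scoring peaks alone.

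**Figure D1:**
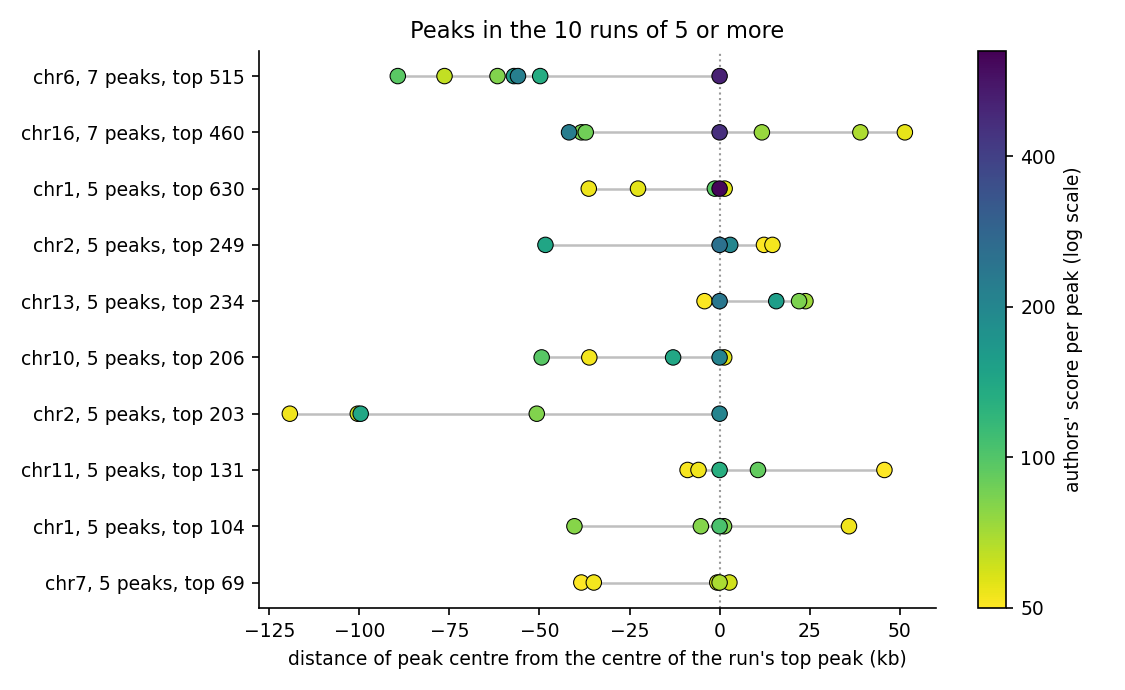
Peaks of the 10 runs of 5 or more, 1 run per line. The x axis gives the distance of each peak centre from the centre of the run's top peak in kb and the colour gives the authors' score on a log scale. The top peak stands inside the run in 8 of the 10 and at the right end in the chromosome 6 run with 7 peaks and in the chromosome 2 run whose top score is 203.

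Within runs the gaps were crowded at the short end. The 281 gaps ran from 24 bp to 49.7 kb with a median of 16.3 kb (quartiles 4.14 and 32.0 kb). Of these, 106 (37.7%) were at most 10 kb, 75 (26.7%) at most 5 kb and 24 (8.54%) at most 1 kb, and each following 10 kb step held 37 to 51. The 412 gaps within pairs had a similar make-up, with a median of 16.8 kb, 36.7% at most 10 kb and 10.7% at most 1 kb. Past the limit of 50 kb the numbers did not break off: neighbouring peaks were 40 to 50 kb apart at 97 places and 50 to 60 kb apart at 95. The limit therefore marks no step in the spacing of the list.

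**Figure D2:**
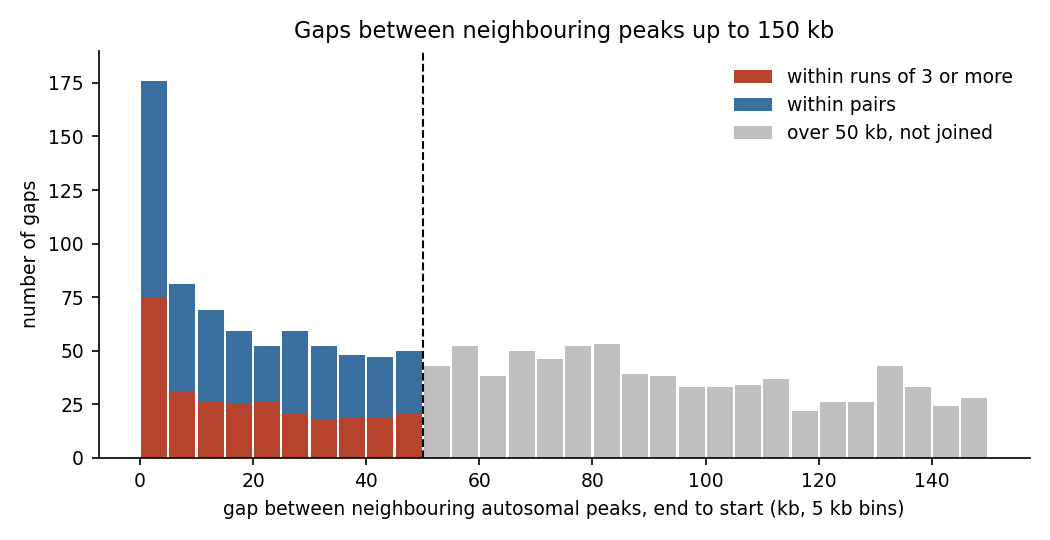
Number of gaps between neighbouring autosomal peaks in bins of 5 kb, up to 150 kb. Red bars are gaps within runs of 3 or more, blue bars gaps within pairs, and grey bars gaps past the 50 kb limit (dashed line); the first bin holds 176 gaps, of which 75 are within runs, and the next holds 81.

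Few runs were tight throughout. In 11 runs every gap was at most 10 kb, in 58 runs gaps lay on both sides of 10 kb, and in 47 runs every gap was over 10 kb. The tight runs held at most 4 peaks, spanned 4.77 to 13.0 kb and had a median peak score of 87.6 over 35 peaks. The median peak score was 78.9 over 215 peaks of the mixed runs and 68.1 over 147 peaks of the loose runs, with median widths of 803, 727 and 686 bp in the same order. The median top score did not follow that order, at 117, 131 and 125. Scores of 100 or more were reached by 37.1% of peaks in tight runs (13 of 35), 29.8% in mixed and 26.5% in loose ones. Over all autosomal peaks the share was 28.7%. The tight class held only 11 runs, and the differences between the 3 classes were not tested. Grouped by distance to the nearest peak of the run, the shares followed no steady order. They were 34.8% up to 1 kb, 26.7% from 1 to 5 kb and 42.2% from 5 to 10 kb. Beyond that they were 24.3% from 10 to 20 kb and 27.5% from 20 to 50 kb.

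In the runs of 3, the shorter gap made up a median of 28.5% of both gaps together (quartiles 11.1 and 40.4%). The longer gap was at least 5 times the shorter in 24 of the 81 runs and under 2 times the shorter in 34. The shorter gap came first in 39 and second in 42, so the uneven spacing had no common direction along the chromosome.

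The tightest run was chr15:93349907-93354674, where 3 peaks scoring 72.1, 114 and 92.6 filled 4.77 kb with gaps of 723 bp and 1.76 kb. Peaks covered 48.03% of it, the highest share of any run, while the median run was covered to 4.92%. The next shortest were chr2:73555752-73563379 (7.63 kb), whose scores of 63.5, 52.6 and 53.4 were all low, and chr1:72052277-72060646 (8.37 kb), with scores of 118, 59.4 and 64.3. Then came chr3:52904513-52914220 (9.71 kb), with scores of 103, 252 and 98.5, and chr13:89878106-89888082 (9.98 kb), with 105, 80.6 and 57.6.

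Runs with more peaks were only slightly longer up to a size of 5. The median run spanned 48.7 kb (quartiles 29.0 and 62.7 kb), and 17 runs were under 20 kb, 55 were 50 kb or longer and 2 were over 100 kb. The median was 46.8 kb for runs of 3, 52.1 kb for runs of 4 and 53.3 kb for runs of 5, and runs of 3 reached 94.4 kb. Packing had medians of 0.641 peaks per 10 kb in runs of 3, 0.768 in runs of 4, 0.939 in runs of 5 and 0.760 in the 2 runs of 7. The gap limit caps the span, so these lengths are a description of the rule as well as of the peaks. After the longest run, named above, came chr2:166430930-166532394 (101.5 kb), with scores of 77.1, 74.9, 54.7 and 50.7. It was followed by chr3:29972276-30066625 (94.4 kb), with 69.1, 68.1 and 50.8. Neither of these held a peak scoring 100.

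Over all runs, the highest peak stood at an end about as often as the number of end places would give. It was the first or last peak in 69 of 116 runs (59.5%, 95% exact binomial interval 50.0 to 68.5%), while ends made up 60.6% of places, averaged over runs. It was first in 37 and last in 32. Runs of 3 and longer runs lay on different sides of this. In runs of 3 the top peak was at an end in 60 of 81 (74.1%, interval 63.1 to 83.2%), where 66.7% of places are ends. In runs of 4 it was at an end in 7 of 25 (28.0%, interval 12.1 to 49.4%), where 50% of places are ends, and in runs of 5 or more in 2 of 10 (20%, interval 2.52 to 55.6%), where 37.7% are. The interval for runs of 4 lies just below its share of end places and the other 2 intervals hold theirs. The split by size was made with the scores known, and the difference between sizes was not tested.

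**Figure D3:**
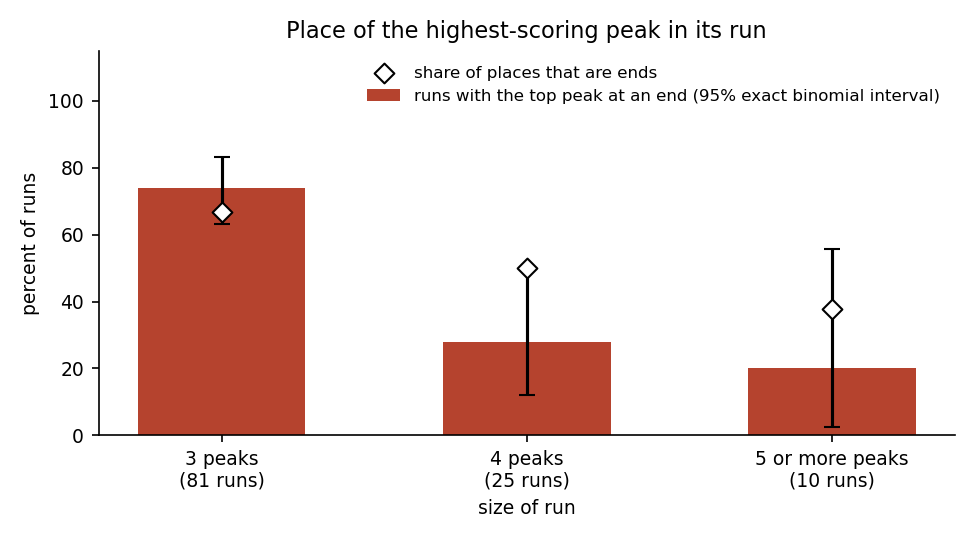
Percent of runs whose highest-scoring peak is the first or last, by size of run, with 95% exact binomial intervals as error bars. White diamonds give the percent of places in such runs that are ends; the bars stand at 74.1%, 28.0% and 20% and the diamonds at 66.7%, 50% and 37.7%.

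Nor did the highest peak lie next to the closest neighbour more often than places allow. It bordered the smallest gap of its run in 70 of 116 runs (60.3%), where 60.6% of places do. Among the 22 runs with a gap of at most 1 kb it bordered that gap in 11 (50.0%), where 54.1% of places do. The second-highest peak stood next to the highest in 71 runs (61.2%), where 60.6% of pairs of places are neighbours. The widest peak was the highest in 53 runs (45.7%), against 30.3% if 1 place is taken per run. Width and score come from the same peak calling, and vary together across the whole list.

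The top score of a run had a median of 125 (quartiles 90.3 and 188), the second score 78.9 (63.9 and 104) and the lowest 55.4 (52.6 and 61.9). The difference between top and second had a median of 42.1 (quartiles 16.4 and 77.4). A score of 100 or more was reached by the top peak in 79 runs (68.1%) and by the second in 31 (26.7%). In 48 runs exactly 1 peak reached 100, in 27 runs 2 did, in 4 runs 3 or 4 did, and in 37 runs none did. These counts stand beside a share of 28.7% over all autosomal peaks and 29.2% over all run peaks, and nothing particular to runs is read from them. The highest of several values is high by its construction. The 281 peaks left after the top ones, with a median of 64.0 and 37 (13.2%) at 100 or more, are low by the same construction.

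The largest lead was in chr17:15567069-15578149, where the peaks scored 190, 53.8 and 837 and the difference was 647. Its top peak, chr17:15577098-15578149, ranked 8th in the list and was the highest-scoring of all run peaks. The next leads were 534, in the chromosome 1 run around the peak ranked 12th, and 340, in chr2:167368488-167415113, with scores of 425, 85.3, 83.6 and 77.8. The chromosome 17 and chromosome 1 runs were the 2 that held any of the 20 highest-scoring autosomal peaks. Their 2 peaks make up 10% of the 20, close to the 9.82% of autosomal peaks that were in runs. Pairs held 8 of the 20, where 20.4% of autosomal peaks were in pairs. At the other extreme, the top and second scores differed by 0.620 in chr8:70342109-70372995 (93.3, 92.7 and 76.0) and by 0.920 in the long chromosome 3 run named above. They differed by 1.4 in chr10:75441009-75530853 (64.0, 53.1 and 65.4).

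Every peak reached 100 in 2 of the 116 runs, where 28.7% of all autosomal peaks do, and these runs are given for their values only. One was chr12:81908101-81984634, whose 4 peaks scored 188, 284, 279 and 227. The other was chr4:70038619-70090832, with 120, 139 and 271. In chr18:38724828-38737821 the scores were 400.1, 97.0, 478 and 87.6 within 13.0 kb, so that 2 peaks past 400 stood 9.26 kb apart; it was the only run whose second peak reached 400. In chr11:96204225-96258652 the scores declined along the chromosome, at 465, 256 and 73.5, with nearly equal gaps of 26.7 and 25.8 kb.

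**Figure D4:**
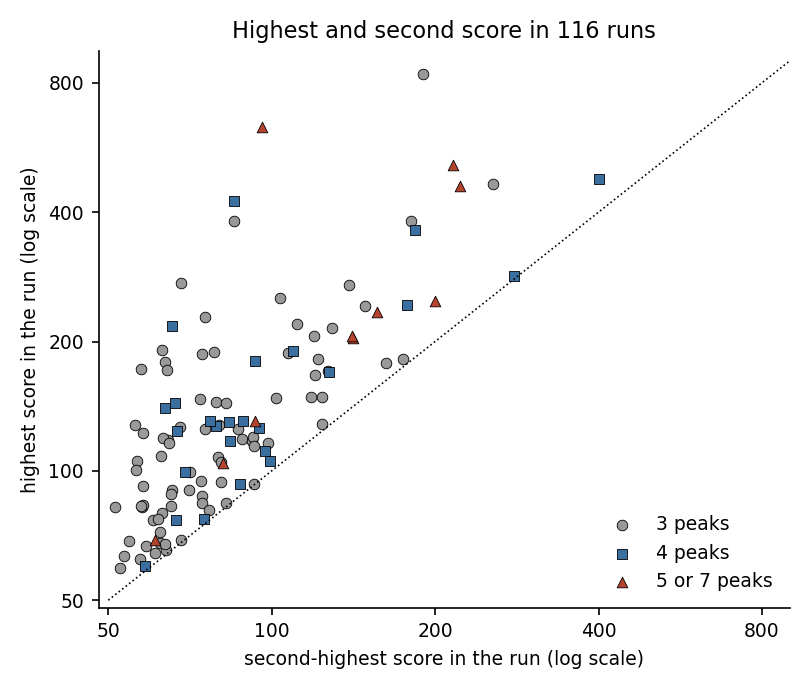
Highest score against second-highest score of each of the 116 runs, both on log axes, with symbols for runs of 3, 4, and 5 or 7 peaks. Points on the dotted line would have equal scores; the chromosome 17 run with scores of 837 and 190 and the chromosome 1 run with 630 and 96.1 lie far above it, and the chromosome 12 run with 284 and 279 lies close to it.

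Across all members, scores were much like those of other autosomal peaks. The median was 76.2 in runs (95% binomial interval of the median 70.6 to 80.7), 73.5 in pairs (71.4 to 76.0) and 72.4 for peaks alone (70.9 to 73.5), so the intervals overlap. A score of 100 or more was reached by 116 run peaks (29.2%), by 264 pair peaks (32.0%) and by 779 single peaks (27.6%), against 28.7% of all autosomal peaks. For 200 or more the count in runs was 31 (7.81%), against 7.40%. For 400 or more it was 8 (2.02%, interval 0.874 to 3.93%), against 1.39%, and 112 run peaks (28.2%) scored under 60, against 30.2%. These shares are near the background. Of the 100 highest-scoring autosomal peaks 11 were in runs, and of the 300 highest 32 (10.7%), close to the 9.82% of all autosomal peaks that were in runs. Pairs held 25 of the 100 highest, where 20.4% of autosomal peaks were in pairs.

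Peaks with neighbours were wider than peaks alone. The median width was 716 bp in runs (95% binomial interval of the median 693 to 748 bp), 712 bp in pairs (696 to 729 bp) and 663 bp for peaks alone (654 to 672 bp), so run peaks were wider than single peaks by 53 bp in the median and differed from pairs by 4.5 bp. Within each of 5 bins of score, the median of run peaks was above that of single peaks. The difference was 16.0 bp in the lowest bin, 40.5, 39.0 and 88.5 bp in the next 3 and 16.5 bp in the highest. The intervals of run and single peaks were apart in the bins from 56.0 to 65.4 and from 82.3 to 122 and overlapped in the other 3. Run peaks also had a higher median than pair peaks in each bin but the highest, where the medians were 844 bp in runs and 868 bp in pairs. Widths of 1000 bp or more were found in 31 run peaks (7.81%, interval 5.37 to 10.9%), 58 pair peaks (7.04%) and 146 single peaks (5.17%). Over all autosomal peaks the share was 5.81%, which the interval for run peaks holds. All 4 peaks of chr9:3003814-3036759, described below, are among the 31. Members were chosen by the gaps between peak edges, and a wider peak leaves a shorter gap. Measured from centre to centre, 396 peaks lay in runs, against 397. The width difference was not computed in that setting, so this count does not address it. Whether the caller draws edges differently where peaks are close was not tested.

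**Figure D5:**
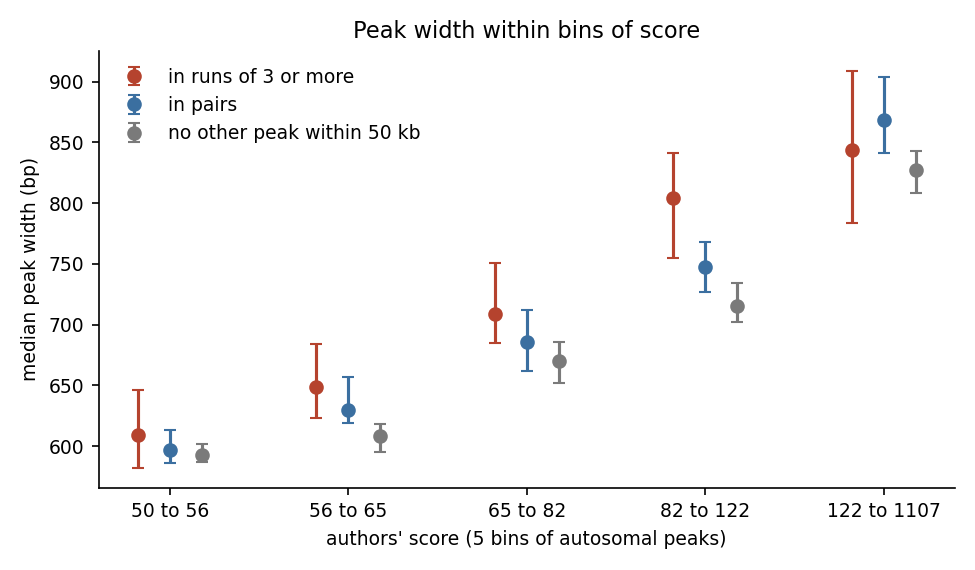
Median peak width in bp within 5 bins of the authors' score, for autosomal peaks in runs (red), in pairs (blue) and with no other peak within 50 kb (grey). Error bars are 95% binomial intervals of the median; run peaks stand at 804 bp and single peaks at 716 bp in the bin from 82.3 to 122, the widest separation.

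Only 1 run held peaks wider than 1500 bp. Its 4 peaks, chr9:3003814-3036759, were 2314, 3503, 1187 and 1213 bp wide and scored 80.8, 181, 72.9 and 93.1. They include the first peak listed on chromosome 9, and mappability there was not tested.

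Runs also had nearer neighbours outside their own limits. Distances beyond 50 kb were not used to join peaks, except that each flank is over 50 kb by the rule. The next peak outside a run lay at a median of 267 kb over 229 flanks, against 317 kb over 821 flanks of pairs and 391 kb over 5612 flanks of single peaks. It was within 100 kb at 49 flanks of runs (21.4%), at 17.7% of those of pairs and at 12.4% of those of single peaks. One distance can be a flank of 2 neighbours, and these shares were not tested. Between neighbouring runs on a chromosome the median distance was 12.4 Mb, which is given with no reference for this number of runs. Of 97 such neighbours 9 were at most 1000 kb apart and 1 was at most 200 kb apart. That was chr4:106603924-106650704, with scores of 63.5, 50.7 and 179, and chr4:106751350-106801611, with 188, 95.8 and 107. These runs were 100.6 kb apart with no peak between them, and the top peaks of both, chr4:106649718-106650704 and chr4:106751350-106752384, faced each other across that distance.

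The limit of 50 kb decided membership for peaks near it. Just inside it were the chromosome 2 run of 120.1 kb with its gap of 49.7 kb, chr13:34330694-34386514 with a gap of 49.1 kb and a top score of 131, and chr11:114307248-114374417 with a gap of 49.1 kb and a top score of 124. Just outside were 3 strings of 3 peaks. They were chr13:104397136-104457082, with a gap of 50.8 kb and a top score of 358, chr18:67545523-67649214, with 51.2 kb and 934, and chr2:26341867-26397473, with 51.9 kb and 908. The top peaks of the last 2 rank 2nd and 3rd among autosomal peaks and in the whole list, so that peaks of the highest rank missed the definition by less than 2 kb.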

How the data were processed

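ChIP-seq peaks of the FLAG library over the Input library were deposited by the authors as 1 list of chromosome, start, end, name and score, without a header. The score is the authors' value per peak, on a scale that is not given in the sources used here. Peaks were called with MACS, per the peak names in the deposited file. CASAVA 1.4 and FastQC, and mm9 as the build, stand in the submitters' processing notes. The sources used here do not give the MACS version, its settings or the aligner. Starts were read as 0-based and are printed 1-based. The start and end columns and other deposited values were used unchanged. Peaks on chromosomes 1 to 19 were sorted and joined where the next start minus the previous end was at most 50000 bp, and runs of 3 or more were kept. Depth is unknown. Shares have 95% exact Clopper-Pearson intervals, and medians have binomial order-statistic intervals; no p-value was computed, as each group has 1 library.

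The runs named are all of 5 or more peaks, the 5 with the highest top score, the 5 shortest and 3 longest, and the 3 largest and 3 smallest leads of the top peak. Also named are the 3 nearest the limit on each side, those with a peak ranked in the top 20 and those with a peak past 1500 bp. Those on chromosome 12 and chromosome 4 were chosen after their values were seen. The members and the comparisons were chosen with earlier results of these data known. On 20 simulated lists the run finder recovered every planted run in 20. E-box content was planned and not run without a genome of mm9. Software was Python 3.11.15 with pandas 2.3.3, numpy 2.4.6, scipy 1.17.1 and matplotlib 3.10.9.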

Additional observations from a re-analysis of the deposited data

How the results depend on the processing

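The number of runs depended on the limits: 46 at a gap of 20 kb, 241 at 100 kb, 51 with scores of at least 60 and 4 with scores of at least 100, against 116. The median span was 17.2 kb at 20 kb and 105 kb at 100 kb. The share of runs with the top peak at an end was 74.1% in runs of exactly 3, where 66.7% of places are ends. It was 55.2 to 61.8% in the other 6 alternatives, against 59.5% in the main setting. The mix of run sizes, and with it the share of end places, differs between settings. These shares alone therefore do not show how stable the result is. At a gap of 20 kb the median score of run peaks exceeded that of single peaks by 9.02 (3.82 at 50 kb) and the median width by 91.0 bp (53.0 bp). Both differences kept their sign in each of the 5 alternatives tried for them, which reuse the same peaks. At 50 kb the interval of the run median, less the single-peak median taken as fixed, was -1.845 to 8.285 in score, which spans both signs. For width it was 30.0 to 85.0 bp. Both leave out the counting error of the single-peak median, so they are too narrow for a difference of medians. The cause of the differences was not tested. Leaving out the first 3.1 Mb of each chromosome or joining peaks less than 1 kb apart moved each of the 5 values by less than its counting interval, or the number of runs by less than 1.5 times. Measuring from centre to centre gave the same number of runs, with 396 peaks in them. No paired analysis was possible because each group has 1 library.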
